A study of Mus musculus with 4 samples.

Results

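The immediate early and heat shock genes described here are 32 genes chosen by name, 27 early genes and 5 heat shock genes, and all 32 were found by symbol among the 26286 Entrez genes of the count table. RNA of LSK cells, the lineage-negative Sca-1+ Kit+ cells of mouse bone marrow that hold the blood stem cells and multipotent progenitors, was sequenced in 4 libraries. Of these, 2 were labelled Hhex-deleted and 2 wild-type, all from C57BL/6 bone marrow and numbered as replicate 1 and 2 in each group. Hhex encodes a homeobox transcription factor. The labels give no age, sex, treatment, time, Cre line or floxed allele, do not say how or in which cells Hhex was deleted or how long the cells were handled, and do not say whether libraries came from separate mice or whether animals were pooled. The p-values below therefore measure only the spread between these libraries, which may be technical.

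Immediate early genes are switched on within minutes of a stimulus by transcription factors that are already present in the cell, such as the serum response factor with its ETS partners and CREB, without new protein synthesis. Many encode transcription factors themselves (FOS and JUN, which pair as AP-1, and the EGR, NR4A and KLF families), while others encode proteins that end the signal, such as phosphatases and proteins that destabilise mRNA. Heat shock genes are driven by a separate factor, HSF1, and encode chaperones that refold damaged protein. Both groups are known to respond to the handling, dissociation and sorting of cells, so the libraries were compared between replicate numbers within each group as well as between the groups.

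Total counts per library lay between 27871827 and 29501591. Values are given as CPM, in which a gene's count is divided by the total of its library after TMM scaling. On this scale 3 counts, the floor used here, amount to 0.0995 to 0.109 CPM. Intervals and floors cover counting error only. The surface markers of the sort were present in every library, with Kit at 566 to 698 CPM. Ly6a, which encodes Sca-1, stood at 25.4 CPM in both wild-type libraries. In labelled Hhex-deleted replicates 1 and 2 it stood at 20.7 and 42.5 CPM. Hhex itself stood at 127 and 115 CPM in wild-type and at 179 and 188 CPM in the libraries labelled Hhex-deleted. It was thus not lower under the deletion label (log2 fold change 0.6 ± 0.09, SE; edgeR adjusted p = 0.0271). Reads from exons that a deletion leaves in place count toward the gene, so this does not check the deletion, and all directions below refer to libraries as labelled. Xist stood at 2662 CPM in labelled Hhex-deleted replicate 1 and at 1.89 to 2.66 CPM in the other libraries, so that library stands apart in a female-specific transcript. Values are therefore also given with each library left out.

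The main pattern was between replicate numbers. In both groups the replicate 1 library carried far more RNA of the immediate early genes than the replicate 2 library. Of the 31 members that passed the low-count filter, 23 were at least 2-fold higher in replicate 1 than in replicate 2 of wild-type, against 1.77% of the 14912 tested genes. In the libraries labelled Hhex-deleted 22 of 31 were, against 2.03% of tested genes, and in both groups together 21 of 31 were, against 0.597%. Of the 21, 17 were at least 4-fold higher in both groups, against 0.262% of tested genes. For 26 of 31 members both replicate 1 libraries lay above both replicate 2 libraries, which held for 19.5% of tested genes. No member was at least 2-fold lower in replicate 1 of wild-type (1.7% of tested genes), and 2 were in the libraries labelled Hhex-deleted (2.76%), both heat shock genes. Each side of these comparisons is 1 library, so they have no replicate check and no p-value.

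**Figure D1:**
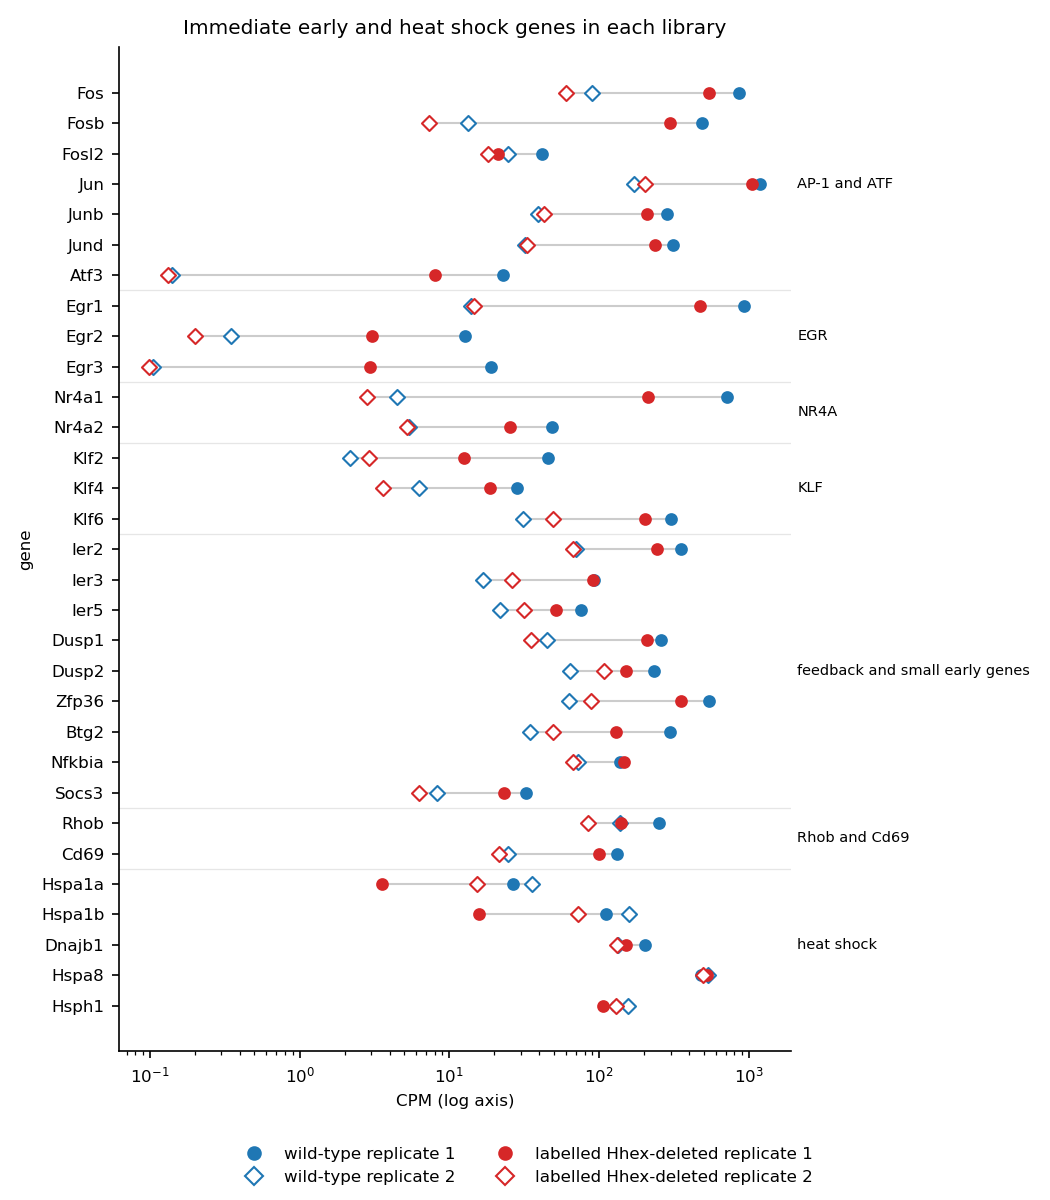
CPM (log axis) of the 31 tested genes in each of the 4 libraries, with filled circles for replicate 1, open diamonds for replicate 2, blue for wild-type and red for the libraries labelled Hhex-deleted. For most early genes the filled circles of both colours sit to the right of the open diamonds, as for Egr1 at 929 and 472 against 13.9 and 14.7 CPM, while of the 5 heat shock genes at the bottom 1, Dnajb1, has this order.

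Promoter sequence is shown for 4 early genes, because together they carry several forms of the elements known from early gene promoters. It is also shown for a pair of heat shock genes that are near copies. Each of the 4 early genes was at least 4-fold higher in replicate 1 of both groups. A RefSeq window (GRCm38.p6) was available for 27 of the 32 members, and the 250 bases before the annotated start are printed 5′ to 3′ along the gene. The deposited counts were made on another build, so these coordinates serve only to place the sequences. Capitals mark TGACGT and the TATA box letters TATAAA in Fos, at chr12:85473640-85473889 (+ strand), and TGCGTCA in Nr4a1, at chr15:101266596-101266845 (+ strand). They mark TGACGT and TGACGTCA in Dusp1, at chr17:26508473-26508722 (- strand), and a CArG box, the binding sequence of the serum response factor, in Zfp36, at chr7:28379229-28379478 (- strand).
Fos: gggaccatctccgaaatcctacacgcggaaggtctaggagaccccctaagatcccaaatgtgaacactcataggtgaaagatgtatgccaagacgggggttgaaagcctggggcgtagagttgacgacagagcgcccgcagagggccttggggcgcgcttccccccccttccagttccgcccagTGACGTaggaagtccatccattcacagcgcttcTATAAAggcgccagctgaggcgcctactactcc
Nr4a1: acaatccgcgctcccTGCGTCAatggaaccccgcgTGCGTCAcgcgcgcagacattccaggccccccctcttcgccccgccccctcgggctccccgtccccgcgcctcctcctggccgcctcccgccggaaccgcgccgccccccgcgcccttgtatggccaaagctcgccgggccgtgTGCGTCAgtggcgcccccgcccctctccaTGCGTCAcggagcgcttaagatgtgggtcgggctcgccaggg
Dusp1: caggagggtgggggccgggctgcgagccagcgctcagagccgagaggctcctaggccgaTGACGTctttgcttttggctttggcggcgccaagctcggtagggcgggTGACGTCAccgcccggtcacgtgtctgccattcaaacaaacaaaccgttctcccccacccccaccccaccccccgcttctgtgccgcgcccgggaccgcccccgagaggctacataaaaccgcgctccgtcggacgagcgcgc
Zfp36: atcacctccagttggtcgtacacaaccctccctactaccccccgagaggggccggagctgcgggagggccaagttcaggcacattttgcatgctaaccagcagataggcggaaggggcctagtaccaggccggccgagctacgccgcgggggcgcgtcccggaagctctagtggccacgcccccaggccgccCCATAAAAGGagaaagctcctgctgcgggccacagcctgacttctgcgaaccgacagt
The cAMP response element TGACGTCA, which CREB binds, contains TGACGT. Searched on both strands over windows of 300 bases (250 before and 50 after the start), the letters TGACGT were present in 6 of the 23 early members with a window (Atf3, Btg2, Dusp1, Egr2, Fos and Nr4a3) and in 8.37% of the 27025 genes with a window. The whole TGACGTCA was in 2 of 23 (Btg2 and Dusp1) and 2.03% of genes, TGCGTCA in 2 of 23 (Fosb and Nr4a1) and 2.42%, TATAAA in 4 of 23 and 15.7%, and the CArG box in 2 of 23 (Egr2 and Zfp36) and 1.81%. The AP-1 letters TGANTCA were in 0 of 23 and 8.97%, and an NF-kB site was in 6 of 23 (Fos, Fosb, Fosl2, Ier3, Nfkbia and Nr4a1) and 5.14%. These matches describe letters in short windows and are not shown to be bound.

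Fos and Jun, which encode the classic AP-1 pair, were among the most abundant early genes. Fos stood at 865 and 89.3 CPM in wild-type replicates 1 and 2 and at 545 and 60.1 CPM in labelled Hhex-deleted replicates 1 and 2, so replicate 1 was 9.69-fold and 9.07-fold above replicate 2. Jun stood at 1189 and 172 CPM in wild-type and at 1044 and 203 CPM in the libraries labelled Hhex-deleted, differences of 6.9-fold and 5.15-fold. In both genes the 2 replicate 1 libraries were high and the 2 replicate 2 libraries low, whatever the group label. Fosb, a FOS relative, differed more, with 489 and 13.4 CPM in wild-type and 296 and 7.36 CPM in the libraries labelled Hhex-deleted, that is 36.4-fold and 40.2-fold. Fosb was the AP-1 member whose replicate difference was larger in the libraries labelled Hhex-deleted than in wild-type; in the other 6 genes of this family it was larger in wild-type.

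Junb and Jund, the other JUN family members, followed the same order. Junb stood at 283 and 38.9 CPM in wild-type and at 209.6 and 43.1 CPM in the libraries labelled Hhex-deleted. Jund, often described as more steadily expressed than the other JUN genes, stood at 312 and 32.2 CPM and at 236 and 32.9 CPM. In both genes the replicate 2 libraries of the 2 groups were close to each other and 4.86-fold to 9.68-fold below replicate 1 of their own group. Atf3, a stress-induced repressor of the ATF family, was nearly silent in replicate 2, with 4 reads in each group, against 628 reads in wild-type replicate 1 and 236 reads in labelled Hhex-deleted replicate 1. The ratios of CPM were 164 (95% exact interval 63.6 to 602) and 60.9 (23.5 to 226). Fosl2, a FOS relative that responds later than Fos, was the exception, with 41.5 and 24.5 CPM in wild-type and 21.1 and 18 CPM in the libraries labelled Hhex-deleted. Its replicates differed by 1.7-fold and 1.17-fold, and its 2 groups did not overlap.

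The EGR genes encode zinc finger factors downstream of ERK signalling. Egr1 stood at 929 and 13.9 CPM in wild-type and at 472 and 14.7 CPM in the libraries labelled Hhex-deleted, so replicate 1 was 67-fold and 32.1-fold above replicate 2. The replicate 2 libraries of both groups thus held nearly the same level of Egr1. Egr2 stood at 12.7 and 0.35 CPM and at 3.05 and 0.199 CPM. Egr3 had 522 reads in wild-type replicate 1 and 86 in labelled Hhex-deleted replicate 1, against 3 reads in each replicate 2 library, ratios of CPM of 181 (95% exact interval 61.7 to 882) and 29.6 (9.8 to 146). In all 3 genes the replicate difference was larger in wild-type than in the libraries labelled Hhex-deleted, a contrast that was not tested.

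The NR4A genes encode orphan nuclear receptors whose activity is set mostly by how much of them is made. Nr4a1 was among the members with the widest gaps, with 712 and 4.48 CPM in wild-type and 213 and 2.82 CPM in the libraries labelled Hhex-deleted. The ratios were 159 (95% exact interval 134 to 191) and 75.4 (60.9 to 94.6). Nr4a2 stood at 48.6 and 5.39 CPM and at 25.4 and 5.21 CPM, with the same order of libraries. Nr4a3 was left untested by the low-count filter, with 14 and 1 reads in wild-type and 1 and 0 in the other group, so only 1 library exceeded the floor of 3 counts.

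Klf2, Klf4 and Klf6 encode KLF zinc finger factors, of which KLF2 is best known for quiescence and trafficking of lymphocytes. Klf2 stood at 45.5 and 2.17 CPM in wild-type and at 12.5 and 2.92 CPM in the libraries labelled Hhex-deleted, 20.9-fold and 4.28-fold. The high library was thus wild-type replicate 1 above all. Klf4 stood at 28.2 and 6.27 CPM and at 18.7 and 3.62 CPM. Klf6 stood at 302 and 31.2 CPM and at 204 and 49 CPM. In all 3 genes both replicate 1 libraries lay above both replicate 2 libraries.

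The 9 feedback and small early genes showed the same order, with differences of 0.94 to 3.09 on the log2 scale in wild-type and 0.48 to 2.57 in the libraries labelled Hhex-deleted. Zfp36, which encodes tristetraprolin, a protein that destabilises cytokine and early gene mRNA, stood at 539 and 63.4 CPM in wild-type and at 355 and 87.9 CPM in the libraries labelled Hhex-deleted. Dusp1, a phosphatase of p38 and JNK whose promoter above holds a whole cAMP response element, stood at 259.6 and 44.8 CPM and at 208 and 34.9 CPM, near 5.8-fold and 5.95-fold. Its difference was thus of like size in the 2 groups. Btg2, an antiproliferative gene that p53 can also induce, stood at 296 and 34.7 CPM against 129.6 and 48.9 CPM, 8.54-fold and 2.65-fold. Dusp2, a phosphatase of ERK, stood at 234 and 64.1 CPM against 151 and 108 CPM, 3.64-fold and 1.4-fold. In Btg2 and Dusp2 the replicate difference in the libraries labelled Hhex-deleted was the smaller of the pair.

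Ier2 stood at 351 and 70.4 CPM in wild-type and at 244 and 67.5 CPM in the libraries labelled Hhex-deleted. Ier3 stood at 91.9 and 16.9 CPM and at 91 and 26.4 CPM, so its replicate 1 libraries were alike. Ier5, which is known to act on HSF1, stood at 76.1 and 21.8 CPM and at 51.9 and 31.6 CPM. These early response genes again had both replicate 1 libraries highest. Nfkbia, the inhibitor of NF-kB that NF-kB itself induces, stood at 138 and 72 CPM and at 147 and 66.7 CPM, 1.92-fold and 2.21-fold. Socs3, which damps STAT3 signalling, stood at 32.3 and 8.26 CPM and at 23.1 and 6.3 CPM. Its replicates differed by 3.91-fold and 3.66-fold, again with replicate 1 high in both groups.

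The last 2 early genes encode proteins outside transcription. Cd69, a surface lectin that holds lymphocytes in tissue and appears early on activation, stood at 131 and 24.8 CPM in wild-type and at 100 and 21.4 CPM in the libraries labelled Hhex-deleted, 5.26-fold and 4.67-fold. Rhob differed less, with 252 and 139 CPM in wild-type and 141 and 84.3 CPM in the libraries labelled Hhex-deleted, 1.81-fold and 1.67-fold. Rhob was lower under the deletion label by a similar amount in replicate 1 and in replicate 2, at -0.83 and -0.72 on the log2 scale, and did not pass the test over all 4 libraries with group as its only term.

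The 5 heat shock genes differed in how they followed the replicate number: Dnajb1 was higher in replicate 1 of both groups, Hsph1, Hspa1a and Hspa1b were lower there, and Hspa8 had no common direction. Hspa8, the constitutive HSC70 chaperone, stood at 481 and 537 CPM in wild-type and at 527 and 495 CPM in the libraries labelled Hhex-deleted. Hsph1, an HSP110 exchange factor for HSP70, stood at 130.3 and 155 CPM and at 106 and 129 CPM. Neither had both replicate 1 libraries above both replicate 2 libraries. Dnajb1, an HSP40 co-chaperone and a strong HSF1 target, stood at 203 and 134 CPM and at 151 and 132 CPM, so it shared the order of the early genes at 1.51-fold and 1.14-fold.

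The inducible HSP70 genes Hspa1a and Hspa1b ran the other way. Hspa1b stood at 111 and 159 CPM in wild-type and at 15.9 and 72.6 CPM in the libraries labelled Hhex-deleted. Hspa1a stood at 26.6 and 35.9 CPM and at 3.53 and 15.4 CPM. In both genes labelled Hhex-deleted replicate 1 was the lowest library, although it was 1 of the 2 libraries high in early genes, and the 2 groups did not overlap. The summed CPM of 10 mature neutrophil markers had the same order of libraries as these genes. It was 1031 and 506 in wild-type replicates 2 and 1, and 479 and 107 in labelled Hhex-deleted replicates 2 and 1. Of the single markers S100a8 had this order (462, 268, 174 and 50.1 CPM), while the others did not. In S100a9, Ngp, Camp and Lcn2, for example, labelled Hhex-deleted replicate 2 lay above wild-type replicate 1. The part of neutrophils in the values of Hspa1a and Hspa1b was not tested. Hspa1a and Hspa1b lie next to each other on chromosome 17 and are near copies, so their reads may be split between them and the values are not independent. Their promoter windows, at chr17:34972157-34972406 (- strand) and chr17:34959239-34959488 (- strand), are equal in 247 of the 250 bases before the start, with the 3 different bases in capitals.
Hspa1a: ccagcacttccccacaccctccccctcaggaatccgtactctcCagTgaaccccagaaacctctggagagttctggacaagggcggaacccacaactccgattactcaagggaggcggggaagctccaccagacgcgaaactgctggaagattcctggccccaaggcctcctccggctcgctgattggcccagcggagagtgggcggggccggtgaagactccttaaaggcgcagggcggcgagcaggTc
Hspa1b: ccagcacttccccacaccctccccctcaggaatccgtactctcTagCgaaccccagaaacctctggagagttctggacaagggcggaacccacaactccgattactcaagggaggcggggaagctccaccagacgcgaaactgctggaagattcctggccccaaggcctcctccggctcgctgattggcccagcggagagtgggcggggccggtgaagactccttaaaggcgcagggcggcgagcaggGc
The paired heat shock element units GAANNTTC, searched on both strands in windows of 300 bases, were present in 3 of the 4 heat shock members with a window (Hspa1a, Hspa1b and Hsph1), in 2 of 23 early members and in 9.04% of genes. The other arrangement, TTCNNGAA, was in 1 of 4 (Hsph1), 1 of 23 and 9.6% of genes.

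**Figure D2:**
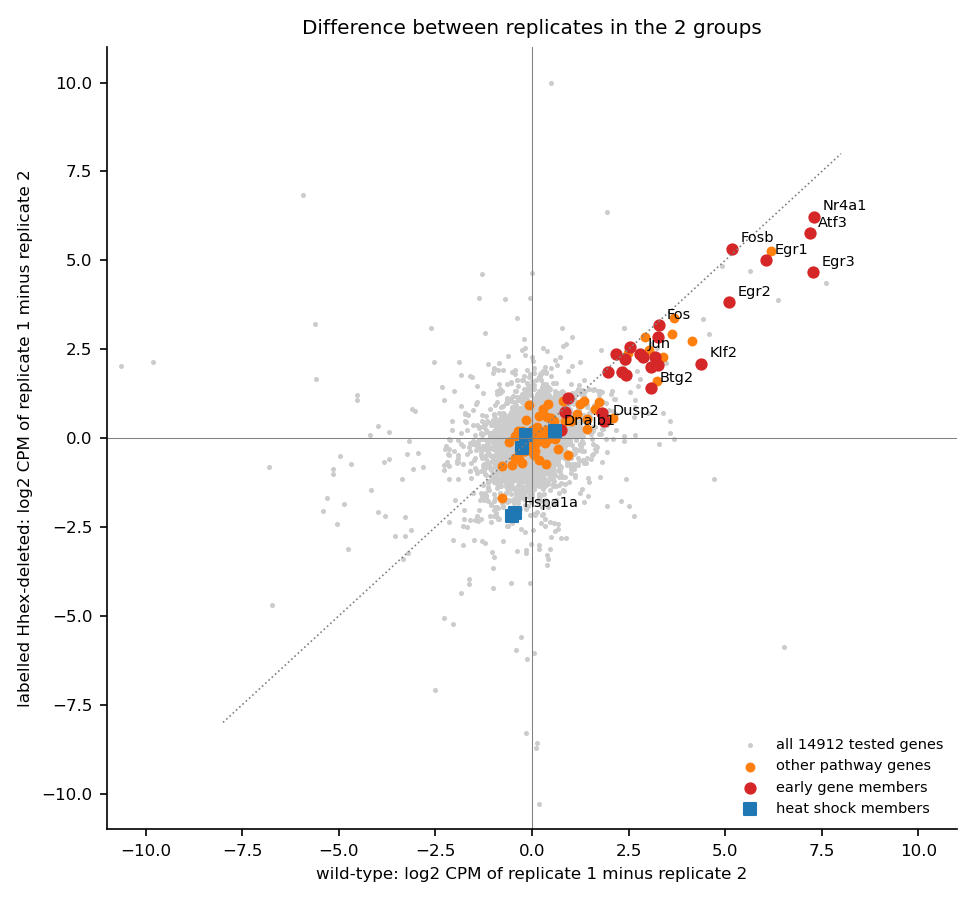
Difference in log2 CPM between replicate 1 and replicate 2, in wild-type (x axis) and in the libraries labelled Hhex-deleted (y axis), with grey points for all 14912 tested genes, red for the 26 tested early genes, blue squares for the 5 heat shock genes, orange for other pathway genes, and a dotted line of equality. Early genes lie at the upper right, most of them below the line, up to Nr4a1 at 7.31 and 6.23, while Hspa1a and Hspa1b lie below 0 on both axes.

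Ranked by the smaller of the 2 replicate differences, members made up 5 of the first 10, 8 of the first 20 and 20 of the first 50 of all 14912 tested genes. Over the 26 tested early genes the median difference was 2.98 on the log2 scale in wild-type and 2.25 in the libraries labelled Hhex-deleted, beside 0 and 0.01 over all tested genes. The difference was larger in wild-type for 22 of the 26, beside 7261 of all 14912 tested genes. Across these 26 genes the differences in the 2 groups had a Pearson correlation of 0.93, given as a description since genes within a library share its depth and its cells. Members with low levels in replicate 2 (Egr3, Atf3 and Egr2) and members with high levels there (Jun and Fos) both took part.

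Per gene length, the order of the members depended on the library. In the authors' log2 RPKM values, Fos (8.72), Jun (8.53), Zfp36 (8.29), Egr1 (8.27) and Nr4a1 (8.23) had the highest levels of the members in wild-type replicate 1, above Hspa8 (7.88). In wild-type replicate 2 the level of Hspa8 (8.08) came first, followed by Rhob (6.04), Dnajb1 (5.97), Hspa1b (5.9) and Jun (5.84). Egr1 had a level of 2.25 and Nr4a1 of 0.94 there. Labelled Hhex-deleted replicate 1 was led by Jun (8.38), Fos (8.08) and Hspa8 (8.03). Labelled Hhex-deleted replicate 2 was led by Hspa8 (7.99), Dusp2 (6.17) and Jun (6.09). Of the 31 members with log2 RPKM values, Hspa8 had the narrowest range of levels over the 4 libraries. The order of the early genes therefore holds for single libraries and not for a group.

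Other immediate early genes, from a list of 29 of which 28 were tested, were high in replicate 1 in part. Of these, 11 were at least 2-fold higher in replicate 1 of wild-type, 8 in the libraries labelled Hhex-deleted and 7 in both, and none was at least 2-fold lower. The largest differences in wild-type were in Egr4, with 34 and 19 reads in the 2 replicate 1 libraries and 0 in both replicate 2 libraries, and in Plk3, a stress-responsive kinase, at 36.4 and 2.03 CPM in wild-type and 35 and 5.24 CPM in the libraries labelled Hhex-deleted. Srf, the serum response factor gene itself, was nearly level between replicates, at 98.3 and 98.9 CPM and at 86.2 and 73.8 CPM. Nfil3, a bZIP factor gene needed for natural killer cells, stood at 14.4 and 10.5 CPM and at 7.95 and 6.87 CPM. Of 13 signal inputs of early genes (ERK, p38, JNK and RSK kinases with ELK and CREB factors), 0 were 2-fold apart in either group, and their differences ran from -0.21 to 0.41 and from -0.49 to 0.08 on the log2 scale. The ends were Elk4 (0.41 in wild-type) and Crem (-0.49 in the libraries labelled Hhex-deleted), with Mkl1 at -0.16 and -0.11.

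Among 10 tested phosphatases and Sprouty feedback genes, 5 were at least 2-fold higher in replicate 1 of wild-type and 1 in the libraries labelled Hhex-deleted. That gene was Dusp5, a nuclear phosphatase of ERK, at 35.7 and 3.78 CPM and at 15.2 and 5.01 CPM. Of 14 NF-kB pathway genes the same 2 were in both groups, Nfkbiz at 111 and 10.5 CPM and at 67.9 and 14 CPM, and Tnfaip3, which encodes the A20 inhibitor, at 131 and 23.3 CPM and at 174 and 33.1 CPM. Dusp4 (2.1 and 0.55 on the log2 scale) and Dusp6 (1.42 and 0.26) were past 2-fold in wild-type alone, with Spred1 at 0.08 and -0.36 and Dusp7 at -0.2 and -0.36; whether the groups differ here was not tested. The other 12 NF-kB genes were not 2-fold apart, among them the subunit gene Nfkb2 (0.25 and 0.06), Bcl3 (-0.26 and -0.69), Birc3 (-0.04 and -0.12) and Traf1 (-0.51 and -0.77). None of 8 STAT feedback genes, 20 other heat shock and chaperone genes and 12 genes of endoplasmic reticulum and integrated stress was at least 2-fold higher in replicate 1 of either group. Trib3 (1.82 and 3.12 CPM, and 0.959 and 3.12 CPM) was the only gene of these 3 lists at least 2-fold lower there, in the libraries labelled Hhex-deleted.

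**Figure D3:**
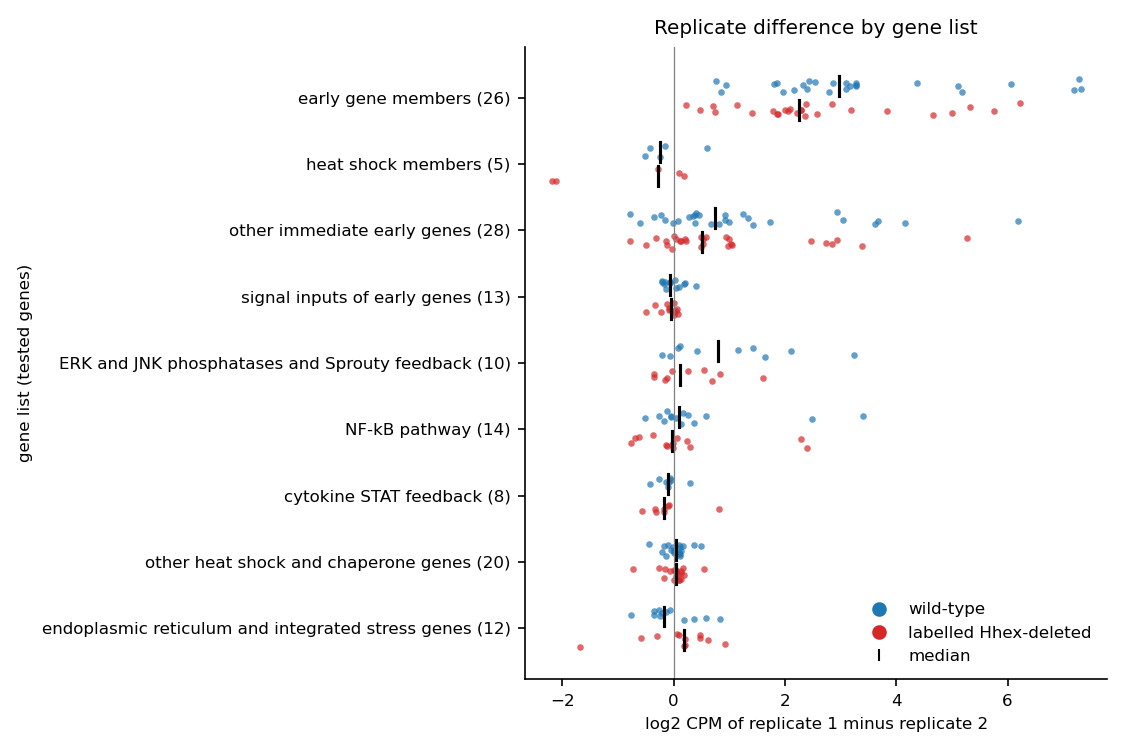
Log2 CPM of replicate 1 minus replicate 2 for each tested gene of each list, in blue for wild-type and red for the libraries labelled Hhex-deleted, with vertical bars at the medians. The early gene members have medians of 2.98 and 2.25, other immediate early genes of 0.74 and 0.51, and the list of other heat shock and chaperone genes of 0.05 in each group.

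Markers of other cell types were summed in each library beside this pattern. Summed CPM of 10 mature neutrophil markers was 506 and 1031 in wild-type replicates 1 and 2 and 107 and 479 in the libraries labelled Hhex-deleted, so it was lower in replicate 1 of both groups, with S100a8 at 268 and 462 CPM and at 50.1 and 174 CPM. S100a9 (167 and 389 CPM, and 22.4 and 174 CPM), Ngp (26.4 and 68.2, and 13.6 and 55.5 CPM) and Camp (15.5 and 55.6, and 1.44 and 29.6 CPM) had the same order of replicates. So did Ltf, Lcn2 and Retnlg. Cxcr2 (6.86 and 8.51, and 4.42 and 3.58 CPM) and Mmp8 (1.9 and 2.35, and 2.95 and 2.49 CPM) had it in wild-type alone. Retnlg and Mmp8 were higher under the deletion label in both replicate numbers. Ly6g was at or below 0.219 CPM in every library. Sums of 10 monocyte and macrophage markers were 208 and 239, and 166 and 127 CPM, while edgeR called 3 of them higher under the deletion label (C1qa, C1qb and C1qc) and 1 lower (Vcam1). Those of 10 T and natural killer cell markers were 8.35 and 10.2, and 6.23 and 10.5 CPM, of 9 erythroid markers 304 and 365, and 407 and 434 CPM, and of 10 megakaryocyte markers 481 and 415, and 692 and 495 CPM. Sums of 10 B cell markers (39.9 and 45.4, and 110.4 and 139 CPM) and of 10 mast cell and basophil markers (568 and 536, and 1433 and 1258 CPM) were higher under the deletion label in both replicate numbers, with 6 and 5 markers called higher by edgeR and 0 lower. The 10 LSK markers summed to 2183 and 2089, and 2121 and 2675 CPM. In the libraries labelled Hhex-deleted, Ly6a and Procr (12.7 and 35.8 CPM) were at least 2-fold lower in replicate 1. That is 2 of the 10, against 2.76% of tested genes, with 0 of the 10 in wild-type (1.7%). The part of any of these cell types in the early gene pattern was not tested. In RNA of bulk samples, a change in the share of cells that carry a transcript and a change in its amount per cell cannot be told apart.

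Between the groups, no immediate early or heat shock gene passed the test with group as its only term. The fit that adds the replicate number as a term did call members and is given with the alternative settings. edgeR's quasi-likelihood test with Benjamini-Hochberg adjustment called 0 of 31 members higher and 0 lower, against 1.48% and 1.12% of the 14912 tested genes. At an unadjusted p under 0.05 there was 1 member, Fosl2, against 15.8% of tested genes. DESeq2 called 0 of 31 (6.63% of tested genes), with 1 at an unadjusted p under 0.05, and limma-voom called 0 (2.25%), with 0. These counts do not show that the members are equal in the 2 groups, since replicates of the early genes lay so far apart. Fos had means of 477 ± 549 CPM in wild-type and 303 ± 343 CPM in the libraries labelled Hhex-deleted (SD, n = 2 each). Its log2 fold change was -0.66 ± 1.99 (SE; adjusted p = 0.935 by edgeR). Egr1 had -0.95 ± 3.08 (edgeR adjusted p = 0.941), Nr4a1 -1.73 ± 3.56 (0.902) and Egr3 -2.65 ± 2.94 (0.801), so the standard error was larger than the estimate in each.

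The fitted log2 fold change was below 0 in 28 of 31 members, against 51.2% of tested genes, with a median of -0.47 beside -0.01 over all tested genes. This direction changed with the library left out. Without wild-type replicate 1 the median was 1.44 and 24 members reversed, and without labelled Hhex-deleted replicate 2 it was 0.06 and 15 reversed. It was -1.77 without replicate 1 of the deletion label and -1.21 without wild-type replicate 2. Each of these fits leaves 1 replicate number alone in a group, so the difference between replicate numbers enters its sign. They therefore cannot show whether the direction rests on single libraries. In the fit that adds the replicate number as a term, 4 members reversed. The 2 groups did not overlap in 4 of 31 members, all lower under the deletion label, against 45.5% of tested genes that did not overlap in either direction. These 4 were Fosl2, Hspa1a, Hspa1b and Hsph1. Fosl2 had means of 33 ± 12.1 and 19.6 ± 2.19 CPM (SD, n = 2 each). Its log2 fold change was -0.75 ± 0.27 (SE; adjusted p = 0.284 by edgeR). Without wild-type replicate 2, which leaves wild-type replicate 1 alone in its group, it was -1.08.

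Among the heat shock genes, Hspa1b had means of 135 ± 34 and 44.2 ± 40.1 CPM (SD, n = 2 each) in wild-type and in the libraries labelled Hhex-deleted, with -1.61 ± 1 as log2 fold change (SE; adjusted p = 0.638 by edgeR). Hspa1a had -1.72 ± 0.87 (edgeR adjusted p = 0.525). Without labelled Hhex-deleted replicate 2, the log2 fold change was -3.14 for Hspa1a and -3.08 for Hspa1b. Without labelled Hhex-deleted replicate 1, the library that carries Xist, the values were -1.02 and -0.89. Each of these fits leaves 1 replicate number alone in the group labelled Hhex-deleted. Over all 4 libraries, Hsph1 had -0.28 ± 0.13 (edgeR adjusted p = 0.393), Dnajb1 -0.25 ± 0.21 (0.694) and Hspa8 0.01 ± 0.09 (0.987), the last with the smallest standard error of the 5.

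Libraries of the same replicate number were also set side by side, with 1 library on each side and no test. In replicate 1, 29 of 31 members were lower in the library labelled Hhex-deleted, against 51.4% of tested genes, with a median of -0.6 on the log2 scale. Of these, 8 were at least 2-fold lower, against 3.08% of tested genes: Egr3 (-2.69), Egr2 (-2.05), Klf2 (-1.86), Nr4a1 (-1.74), Atf3 (-1.5), Btg2 (-1.19), Hspa1a (-2.91) and Hspa1b (-2.8). In replicate 2, 20 of 31 were lower, against 49.7% of tested genes, with a median of -0.07, and 2 were at least 2-fold lower, against 3.54%, namely Hspa1a (-1.22) and Hspa1b (-1.13). Of the 6 early genes at least 2-fold lower in replicate 1, Egr2 (-0.76) and Nr4a1 (-0.67) were lower by less in replicate 2, Egr3 and Atf3 were at -0.07, and Btg2 (0.5) and Klf2 (0.42) were higher. In replicate 2, Egr3 had 3 reads in each group, Atf3 4 in each, and Egr2 10 in wild-type and 6 under the deletion label. These reads are too few to size a group difference there. Other early genes had differences of like size in replicates 1 and 2, among them Fos (-0.67 and -0.57), Fosb (-0.73 and -0.87), Klf4 (-0.59 and -0.79), Dusp1 (-0.32 and -0.36), Socs3 (-0.49 and -0.39) and Rhob (-0.83 and -0.72). No member was at least 2-fold higher under the deletion label in either replicate number (3.73% and 4.15% of tested genes).

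**Figure D4:**
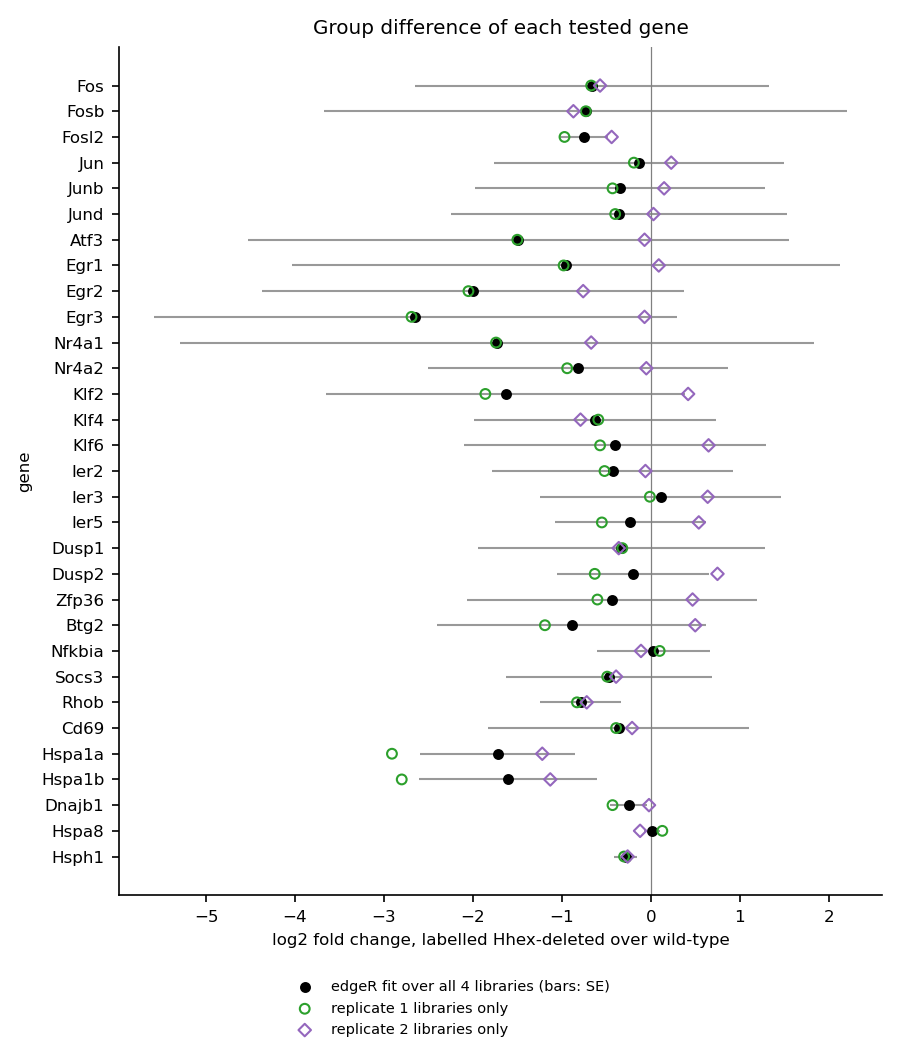
Log2 fold change of the libraries labelled Hhex-deleted over wild-type for the 31 tested genes, with black points and SE bars for the edgeR fit to all 4 libraries, green circles for the replicate 1 libraries alone and purple diamonds for the replicate 2 libraries alone. The bars of most early genes cross 0, as for Fos at -0.66 ± 1.99, and green and purple points part for Klf2 (-1.86 and 0.42) while they lie close for Rhob (-0.83 and -0.72).

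Of 105 tested genes in the 7 lists of other pathway genes, edgeR called 0 between the groups, against 2.6% of all tested genes. At an unadjusted p under 0.05 edgeR had 14 of 105, against 15.8% of all tested genes. DESeq2 called 4 of 105, against 6.63% of all tested genes, all 4 lower: Gadd45b, Cebpd, Mapk3 and Rps6ka1. None of these shares exceeded that of all tested genes. At an unadjusted p under 0.05 DESeq2 had 16 and limma-voom 14, and limma-voom called 0 after adjustment, against 2.25%. Gadd45b, a stress sensor that binds MAP kinase kinases, stood at 20.1 and 25.7 CPM in wild-type and at 13.8 and 12.7 CPM in the libraries labelled Hhex-deleted, with -0.79 ± 0.16 as log2 fold change (SE; adjusted p = 0.0649 by edgeR). Cebpd, a C/EBP factor of the acute phase response, had -0.84 ± 0.21 (0.117), the ERK1 gene Mapk3 -0.39 ± 0.09 (0.0935) and the RSK1 gene Rps6ka1 -0.41 ± 0.09 (0.0896). Gadd45b and Cebpd were not high in replicate 1, unlike the early gene members. In the STAT feedback list Pim1, a kinase induced by STAT5, stood at 176 and 144 CPM and at 342 and 195 CPM, with 0.75 ± 0.32 (edgeR adjusted p = 0.399). Pim1, Hspa5, Cebpd and Dusp6 each passed edgeR's test in a fit with 1 library left out. Such a fit leaves 1 replicate number alone in a group, so group and replicate number cannot be told apart in it. Dusp6 was higher under the deletion label by 0.22 in replicate 1 and by 1.38 in replicate 2, on the log2 scale. In the chaperone list Bag3, an HSP70 cofactor, had -0.41 ± 0.11 (0.118), Hsp90aa1 -0.21 ± 0.08 (0.251), Ahsa1 -0.15 ± 0.08 (0.45) and Fkbp4 -0.13 ± 0.09 (0.579). Of the stress genes of the endoplasmic reticulum, the transcription factor gene Xbp1 had -0.36 ± 0.11 (0.173), Chac1 -1.49 ± 0.48 (0.198) from levels of 0.547 and 0.7 against 0.171 and 0.265 CPM, Pdia4 -0.32 ± 0.14 (0.352) and Hsp90b1 -0.26 ± 0.12 (0.361). Il6st, the receptor subunit gp130, had -0.35 ± 0.09 (0.118), Pim2 0.49 ± 0.14 (0.154) and Socs2 0.62 ± 0.23 (0.259). None of these genes passed the test over 4 libraries.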

How the data were processed

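Sorted LSK cells gave RNA for TruSeq RNA libraries, per the labels. The authors deposited raw read counts per Entrez gene and, per library, log2 RPKM values of 12662 genes. Subread, featureCounts, limma and the build mm9 are named in the submitters' processing notes. How strand and multi-mapped reads were handled is not given in the sources used here. After log2 length was added back, the deposited log2 RPKM values had nearly the same distribution in every library (median range of sorted values 0.00081), a step no label records. Names came from the deposited tables, then from RefSeq (GRCm38.p6). Of the 32 members, 31 are in the log2 RPKM tables.

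Groups and replicate numbers came from titles. Counts were fitted in R 4.3.3 with edgeR 4.0.16 (filterByExpr, minimum count 10 and minimum total 15, 14912 genes, TMM, group as single term, robust quasi-likelihood, Benjamini-Hochberg adjustment over all genes, threshold 0.05). SE is the log2 fold change divided by the square root of F. Replicate differences use log2 CPM with a prior count of 0.5, ratios of CPM use raw counts, and intervals are exact conditional binomial intervals of 95%. DESeq2 1.42.0, limma 3.58.1, other scalings, other filters, a replicate block and left-out libraries were alternatives. The fits were first tested on simulated counts with known changes. There edgeR recovered 63% of 2-fold and 93% of 4-fold changes, with 31 false calls among 14912 genes. Few genes were given a change, so the false calls are a larger share of the calls than of all genes. With no change simulated in any gene, edgeR made 7 calls. The simulated libraries held no difference between replicate numbers, so these rates do not apply to members whose replicates lay far apart. The members and lists were chosen with earlier results of these data known. All members are named. Of each other list, genes were chosen by the smallest unadjusted p (up to 4) or the largest replicate difference (up to 2), and not all are given with full values. Ppp1r15a, Trib1, the single cell type markers, Hspa5 and the genes outside the lists were chosen after their values were seen.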

Additional observations from a re-analysis of the deposited data

How the results depend on the processing

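With RLE scaling, library totals, the minimum count of 50, limma-voom and the deposited log2 RPKM values, 0 members and 0 other pathway genes passed the test. With no filter on low counts 1 other pathway gene did (Gadd45b), and with DESeq2 4 did and 0 members. The counts of members at least 2-fold apart between replicates in either direction were 24 (labelled Hhex-deleted) and 23 (wild-type) with every other scaling, a prior count of 5 and log2 RPKM, 22 and 23 at 3-fold, and 26 and 27 at 1.5-fold. Leaving out a library leaves no such pair, so that was not run.

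The labels do not say whether a replicate number marks a shared day, sort or batch. The deviations of same-numbered libraries had a correlation of 0.312 over 14912 genes, and the replicate differences of the 31 tested members one of 0.94. As 2 pairs are too few to establish pairing, the libraries were not treated as pairs. The standard errors of the main fit therefore include the difference between replicate numbers. With the replicate block 3 of 31 members were lower, Fos (-0.62, edgeR adjusted p = 0.0402), Fosb (-0.78, 0.0321) and Rhob (-0.78, 0.0264), and 0 higher. Of all 14912 tested genes, 130 were lower and 185 higher with the block, beside 167 lower and 221 higher without it. With so few libraries and an added term, the error estimates of the block fit rest largely on the spread shared across genes. In that fit the log2 fold change took the other sign for Jun (0.02), Klf6 (0.01), Dusp2 (0.05) and Nfkbia (-0.01). It did so with limma-voom for Jun (0.02), Klf6 (0.05), Dusp2 (0.06) and Nfkbia (-0.01), and with log2 RPKM for Jun (0.05), Klf6 (0.05), Ier5 (0.01) and Dusp2 (0.08). The cause was not tested.

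With 1 library left out, members lower ran from 0 to 1, other pathway genes past the test from 0 to 2, and the median log2 fold change from -1.77 to 1.44. The lone library of a group is then assumed to vary like the other group. Its replicate number also stands against both numbers of the other group, so these values include the difference between replicate numbers. Log2 fold changes that took the other sign ranged as follows, with the lowest and highest values: Fos -2.99 to 1.76, Fosb -5.09 to 3.5, Jun -1.75 to 1.85, Junb -1.9 to 1.7, Jund -2.39 to 2.06, Atf3 -6.39 to 4.83, Egr1 -5 to 4.13, Egr2 -5 to 2.2, Egr3 -6.53 to 3.8, Nr4a1 -6.99 to 4.59, Nr4a2 -2.37 to 1.5, Klf2 -3.03 to 1.83, Klf4 -2.25 to 0.83, Klf6 -1.77 to 2.02, Ier2 -1.64 to 1.15, Ier3 -1.04 to 1.79, Ier5 -0.86 to 0.94, Dusp1 -2.12 to 1.44, Dusp2 -0.84 to 1.01, Zfp36 -1.78 to 1.8, Btg2 -1.76 to 1.36, Nfkbia -0.66 to 0.57, Socs3 -1.68 to 0.83, Cd69 -1.86 to 1.29, Dnajb1 -0.51 to 0.08, and Hspa8 -0.07 to 0.09. Depth limits Nr4a3, Egr3 and Atf3, whose replicate 2 libraries hold 4 reads or fewer.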

Other observations

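Genes outside every list were ranked by the smaller of the 2 replicate differences among genes with a mean of at least 5 CPM, a rule made after the values were seen. The histone genes Hist1h2ac (8.46 and 1.54 CPM in wild-type replicates 1 and 2, 8.29 and 1.76 CPM in labelled Hhex-deleted replicates 1 and 2), Hist1h2bg (17.3 and 5.74, 15.9 and 6.17 CPM) and Hist1h1c (42 and 16.4, 46 and 14.8 CPM) were among the first 10. Rgs1, a regulator of G protein signalling, stood at 396 and 35.6 CPM in wild-type replicates 1 and 2 and at 283 and 65.1 CPM in labelled Hhex-deleted replicates 1 and 2. Its relative Rgs2 stood at 300 and 88.4 CPM and at 229 and 91.6 CPM. The kinase gene Sik1, a known CREB target, stood at 186 and 28.5 CPM and at 80.6 and 21.8 CPM. The chemokine gene Ccl4 stood at 41.3 and 4.13 CPM and at 30.5 and 9.95 CPM, Tnf at 17.4 and 2.59 CPM and at 7.16 and 2.59 CPM, and Osm at 34.3 and 10.4 CPM and at 27.6 and 11 CPM. These genes had both replicate 1 libraries above both replicate 2 libraries, and none passed edgeR's test between the groups.

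In the opposite direction, Cxcr4, the receptor that retains progenitors in bone marrow, was higher in replicate 2, at 101 and 185 CPM in wild-type and at 92.8 and 175 CPM in the libraries labelled Hhex-deleted. The immunoglobulin heavy chain genes Ighv1-9 (0.839 and 36.3, 0.308 and 1.33 CPM), Ighv6-3 (2.44 and 20.7, 2.4 and 4.38 CPM) and Ighg2c (10 and 18, 5.31 and 12.8 CPM) were higher in replicate 2 as well. So were Cd177, a neutrophil surface protein gene, at 5.03 and 14.2 CPM and at 0.685 and 5.07 CPM, and Chi3l3 at 29.4 and 57.9 CPM and at 7.81 and 35.6 CPM. Among early genes of the other lists, Ppp1r15a, whose product restores translation after stress, stood at 205 and 26.8 CPM and at 207 and 28.8 CPM, and Trib1, a pseudokinase gene, at 31.2 and 2.42 CPM and at 15.1 and 1.43 CPM.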
